A study of Mus musculus with 8 samples.

Results

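Smooth muscle transcription factors and cofactors were examined in RNA from whole mouse aorta. The 10 genes were chosen by name, as the regulators that bind or coactivate at smooth muscle genes, namely Myocd, Srf, Mkl1, Mkl2, Mef2a, Mef2c, Tead1, Gata6, Tcf21 and Prrx1. Of these, 8 were found under that symbol in the table of 48607 assembled loci, and Mkl1 and Mkl2 were found under their current symbols Mrtfa and Mrtfb. The 10 genes named 27 loci, and 8 of the genes named more than 1. For each gene the locus with the most counts was taken, and 9 of these 10 loci reached 1 FPKM (fragments per kilobase of transcript, corrected for how many fragments were mapped) in at least 3 libraries and were tested among 20506 loci. Tcf21 did not reach that level.

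Serum response factor, encoded by Srf, binds the CArG box, a short element rich in A and T that lies in the promoters of both contractile genes and immediate early genes. Myocardin, encoded by Myocd, binds serum response factor in smooth and cardiac muscle and drives contractile genes, whereas the ternary complex factors such as Elk1 compete for the same surface and drive immediate early genes. The myocardin-related factors Mkl1 and Mkl2 are held in the cytoplasm by monomeric actin and enter the nucleus when it polymerises. MEF2 factors, TEAD1 and GATA6 act at further elements of smooth muscle genes, while Tcf21 and Prrx1 mark mesenchymal and fibroblast lineages.

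The question of the comparison was how the aortic transcriptome of ApoE-/- mice differs when the natriuretic peptide receptor C (NPRC) is also deleted. All libraries came from ApoE-/- animals, which develop atherosclerosis, and all mice were fed a Western diet for 12 weeks. The titles name 5 libraries ApoE-/- 1 to 5 and 3 libraries NPRC-/-ApoE-/- 1 to 3. Per the study's methods, NPRC-/- mice on a C57BL/6 background carried a frameshift made with CRISPR/Cas9, the deletion was systemic and not limited to a cell type, the controls were littermates, the ApoE-/- mice bought were male and 8 weeks old, and 5 mice per group were used, of which 8 libraries were analysed here. The genotype entered for each library named the other genotype than the title for 4 of the 8, namely ApoE-/- 4 and 5 (entered as Nprc-/-Apoe-/-) and NPRC-/-ApoE-/- 1 and 2 (entered as Apoe-/-). Groups were therefore formed by title and the edgeR test was repeated by genotype entry, which again sets 3 libraries against 5. Overlap between groups and summed marker levels are given by title only. The sources used here do not say which label applies.

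Libraries held 62969165 to 86693276 counts. Npr3, which encodes NPRC and carries the frameshift, had 0.62 to 1.69 FPKM over the 8 libraries, with a log2 fold change of 0.10 by title (standard error 0.28) and 0.16 by genotype entry (standard error 0.28). Its RNA level therefore did not separate the libraries under either label, and a frameshift need not lower the RNA. The 8 smooth muscle markers were all measured, with a summed level of 6267 to 15371 CPM (counts scaled to a common library total) per library, so the tissue held the cells that the label gives. The labels do not say whether each library was a separate mouse, so the p-values measure the spread between these libraries.

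The sequences below are shown because the CArG box is the element through which Srf, Myocd, Mkl1 and Mkl2 act. RefSeq promoters of 250 bases before to 50 bases after each start site (GRCm38.p6) were searched on both strands for the CArG box, taken as CC, then 6 bases that are each A or T, then GG. Of the 10 factors, 7 had a promoter that was used, and Srf was the 1 gene of the 7 with a CArG box. A promoter was used for 13 of the 16 contractile genes, of which Myl9 and Vcl held a box. Beside Srf, a promoter was used for 5 of 9 immediate early genes, of which Egr2 held a box. The other genes of these lists were not searched, so their lack of a match here does not show that they lack a box. A gene was counted if any of its promoters held a box. Counted by promoter, 1 of 12 for the factors, 2 of 15 for the contractile genes and 4 of 9 for the immediate early genes held one. Of all 32851 promoters, 1.63% held a CArG box. The box is in capitals, with 10 bases on either side, in the direction of transcription.
Srf, chr17:46556225-46556254, minus strand: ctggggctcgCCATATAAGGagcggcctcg
Srf, chr17:46556205-46556234, minus strand: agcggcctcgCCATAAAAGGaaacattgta
Myl9, chr2:156775293-156775322, plus strand: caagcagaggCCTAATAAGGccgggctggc
Vcl, chr14:20929161-20929190, plus strand: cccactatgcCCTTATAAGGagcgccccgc
Egr2, chr10:67537484-67537513, plus strand: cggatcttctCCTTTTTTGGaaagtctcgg
Egr2, chr10:67537787-67537816, plus strand: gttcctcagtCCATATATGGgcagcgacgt

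The boxes of Srf began 82 and 62 bases upstream of its start site, and the 2 windows overlap. Those of Myl9 and Vcl began 161 and 227 bases upstream. The first box of Egr2 lay 72 bases upstream of one of its start sites, and the second lay 72, 73 and 133 bases upstream of others. By title the log2 fold change was 0.16 for Srf, 0.73 for Myl9, 0.23 for Vcl and -1.35 for Egr2. Those of Myl9 and Egr2 had an unadjusted p-value under 0.05 in edgeR and went in opposite directions (values below). So few genes cannot show whether a box goes with a direction in these libraries. The MCAT element GGAATG, which TEAD factors bind, was in the promoters of 6 of the 13 contractile genes (Acta2, Smtn, Lmod1, Mylk, Cald1 and Vcl) and of Mkl2, Mef2c and Prrx1, against 14.7% of all promoters. The MCAT element was also in that of the immediate early gene Egr2. The MEF2 box was in those of Mkl2, Mef2a, the contractile gene Synpo2 and the immediate early gene Jun, against 3.19% of all promoters, and the GATA motif AGATAA was in those of Tcf21 and Jun and of none of the 13 contractile genes, against 11.2%. For each motif a gene was counted if any of its promoters matched, whereas the percentages are of promoters. Counted by promoter, the MCAT element was in 6 of 15 for the contractile genes, 3 of 12 for the factors and 1 of 9 for the immediate early genes. A match is a description of the letters and not of binding.

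On the FPKM scale, which is per length of transcript, the factors were expressed at low to moderate levels. The values are means over all 8 libraries, and for Mkl1 and Tead1 they are those of the locus on the strand of the gene, not of the most counted locus. The locus of Srf is shared with Cul9 and Mir6976. Prrx1 had the highest mean (8.26 ± 1.23), followed by Myocd (6.56 ± 2.01), Mef2a (6.21 ± 0.39), Mkl2 (6.10 ± 0.39), Gata6 (4.29 ± 0.62), Srf (3.64 ± 0.28), Mkl1 (2.99 ± 0.48), Mef2c (2.89 ± 0.40), Tead1 (1.36 ± 0.23) and Tcf21 (0.218 ± 0.265; SD, n = 8 for each). The ranges of neighbours in this order overlapped except between Mkl2 and Gata6, between Mef2c and Tead1 and between Tead1 and Tcf21, where the first was higher in 8 of 8 libraries. On the most counted loci, Tead1 had 2.83 ± 0.66 and Mkl1 2.47 ± 0.63 FPKM (SD, n = 8), so Tead1 came before Mkl1 and its range overlapped that of Mef2c. Among the 9 tested factors, Myocd varied most between libraries, with a coefficient of variation of 30.7%, in comparison with 6.24% for Mef2a and 6.44% for Mkl2.

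**Figure D1:**
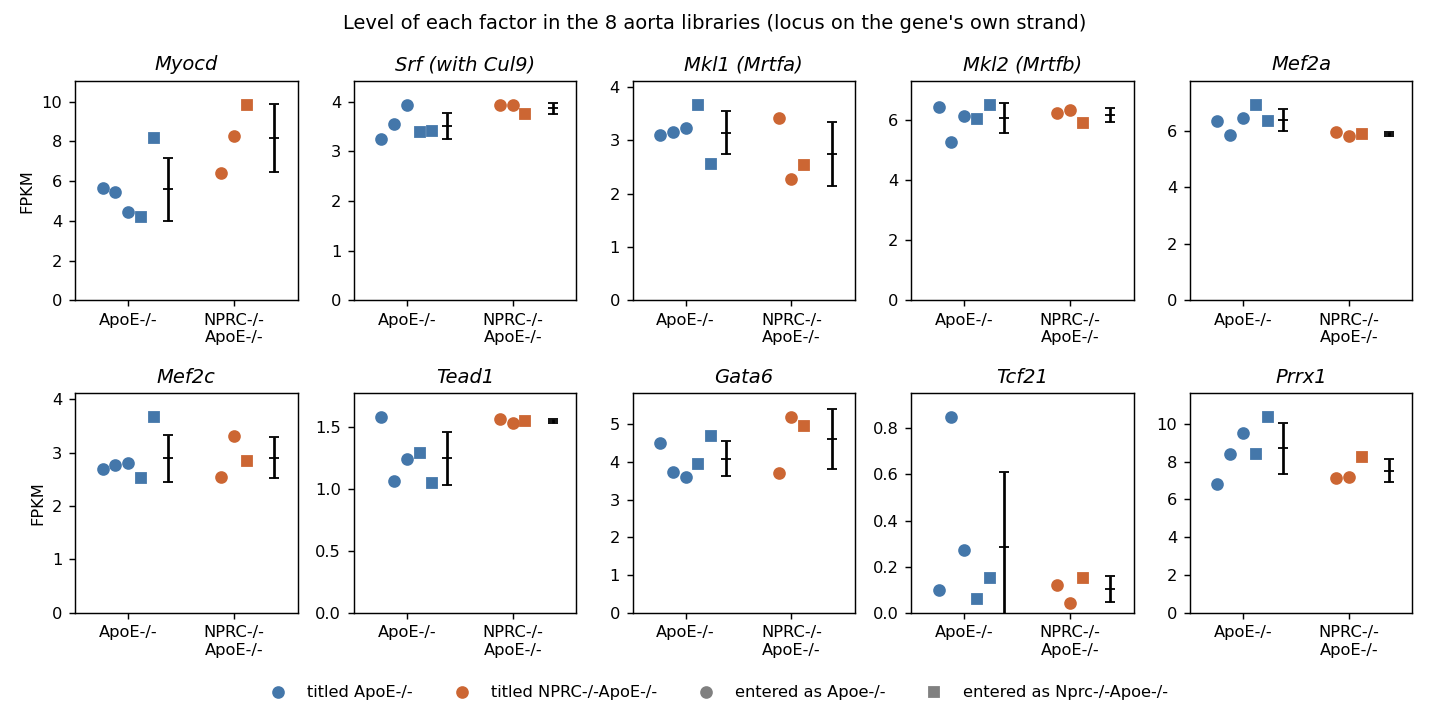
FPKM of each of the 10 factors in the 8 aorta libraries, by title on the horizontal axis, with circles for libraries entered as Apoe-/- and squares for those entered as Nprc-/-Apoe-/-, and the mean ± SD of each titled group in black (n = 5 and n = 3). Myocd reaches 9.85 FPKM in NPRC-/-ApoE-/- 3 and overlaps between the groups through ApoE-/- 5 at 8.19, while Mef2a and Mkl2 stay in narrow ranges.

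By title, 1 of the 9 tested factors had an unadjusted p-value under 0.05 in edgeR's quasi-likelihood test, against 13.6% of all loci tested, and it was Myocd, which was higher in NPRC-/-ApoE-/- (6.51% of all loci were called higher). None of the 9 met the criterion of the study, which asks for more than a 2-fold change in either direction beside that p-value and which 3.47% of all loci met, and 0 had an adjusted p-value under 0.05, as for all loci (0.0%). With DESeq2 and with limma, 0 of the 9 had an adjusted p-value under 0.05 as well, and 1 and 2 had an unadjusted one. The share of all loci was not computed for these 2 tests, so their counts cannot be set against a background. The fitted change was upward for 7 and downward for 2, with a median log2 fold change of 0.13, against -0.01 over all loci. By genotype entry, 1 of the 9 had an unadjusted p-value under 0.05 (1.31% of all loci), but it was the locus taken for Mkl1, described below, which was lower (0.697% of all loci were called lower), and not Myocd. The criterion of the study was then met by 0 of the 9 in edgeR, against 0.463% of all loci.

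Myocd, the coactivator that restricts the contractile programme to muscle, was 1.51-fold higher in NPRC-/-ApoE-/- by title. The gene (ENSMUSG00000020542) is on chromosome 11 of GRCm38, minus strand, from 65176561 to 65269989, and its locus also names Gm12293. The 5 ApoE-/- libraries had 5.65, 5.46, 4.46, 4.20 and 8.19 FPKM, and the 3 NPRC-/-ApoE-/- libraries had 6.41, 8.26 and 9.85 FPKM. The groups overlapped because ApoE-/- 5 was higher than NPRC-/-ApoE-/- 1, and the 4 other ApoE-/- libraries were below all 3. The means were 5.59 ± 1.58 (SD, n = 5) and 8.17 ± 1.72 FPKM (SD, n = 3). In edgeR the log2 fold change was 0.59 (standard error 0.22, 95% interval 0.10 to 1.09), with an unadjusted p-value of 0.024 and an adjusted p = 0.316. By genotype entry, where ApoE-/- 5 and NPRC-/-ApoE-/- 3 stand together with ApoE-/- 4, it was 0.33 (standard error 0.28, 95% interval -0.31 to 0.97, unadjusted p-value 0.277). The unadjusted p-value rose to 0.052 without ApoE-/- 3 and without ApoE-/- 4, to 0.051 without NPRC-/-ApoE-/- 2 and to 0.132 without NPRC-/-ApoE-/- 3, where the log2 fold change was 0.40. In a bulk sample, more smooth muscle cells and more RNA per cell cannot be told apart.

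A second locus named Myocd lies within the gene on the opposite strand, from 65243534 to 65256135, and lists no annotated transcript of it. It held 6.25, 6.70, 5.60, 2.15 and 8.35 FPKM in ApoE-/-, and the NPRC-/-ApoE-/- libraries lay inside this range, with 7.62 FPKM at most. ApoE-/- 4 was the lowest library there and in the gene's own locus, and in FPKM ApoE-/- 5 was the highest in the second locus. In CPM, NPRC-/-ApoE-/- 3 was the highest there, with 124 against 121 in ApoE-/- 5. The log2 fold change of the second locus was 0.27 by title (standard error 0.33), and its counts were 0.209 to 0.513 of those of the gene's own locus per library. Such loci were common among the factors. Of the 27 loci, 17 listed no annotated transcript of the factor, and 15 of these lay on the opposite strand. Loci that listed no annotated transcript of any gene, whatever their name or strand, took 12.1 to 18.1% of the counts of a library. The share was lowest in ApoE-/- 4, 3 and 2 (12.1, 12.5 and 13.2%), which also had the lowest Myocd in its own locus. In the other libraries it was 14.4 to 18.1%, among them ApoE-/- 1 with 16.75% and the next lowest Myocd. Whether this share and the level of Myocd are related was not tested. The libraries were prepared with dUTP, which marks strand, but whether the counting used strand is not given in the sources used here, so reads of both strands may be mixed in either locus.

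Srf, whose product binds CArG boxes, had 3.25, 3.54, 3.94, 3.38 and 3.40 FPKM in ApoE-/- and 3.93, 3.93 and 3.74 FPKM in NPRC-/-ApoE-/-. The highest value stood in ApoE-/- 3, so the groups overlapped, though the other 4 ApoE-/- libraries were below all NPRC-/-ApoE-/- libraries. The log2 fold change was 0.16 by title (standard error 0.13, 95% interval -0.13 to 0.44, adjusted p = 0.589 in edgeR) and -0.053 by genotype entry (standard error 0.14). The gene (ENSMUSG00000015605) lies on chromosome 17 from 46548329 to 46556175, and its locus is shared with Cul9 and Mir6976, so the counts are not those of Srf alone.

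The actin-sensing coactivators did not pass the test either. Mkl2 (ENSMUSG00000009569, chromosome 16 from 13256481 to 13417529) had 6.42, 5.27, 6.12, 6.02 and 6.51 FPKM in ApoE-/- and 6.23, 6.34 and 5.90 FPKM in NPRC-/-ApoE-/-. Apart from the low value of ApoE-/- 2, all libraries lay between 5.90 and 6.51 FPKM. Its log2 fold change was 0.04 by title (standard error 0.12, 95% interval -0.22 to 0.30), and the interval does not reach a 1.5-fold difference in either direction. Without ApoE-/- 2 it was -0.015.

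For Mkl1 the locus with the most counts was not that of the gene. The gene (ENSMUSG00000042292) is on chromosome 15, minus strand, from 81012281 to 81190757, whereas this locus lies on the plus strand from 81002389 to 81095795, carries the name Sgsm3 as well, and lists no annotated transcript of Mkl1. The locus on the strand of the gene, which lists its annotated transcripts and also names Gm49522, had 3.10, 3.16, 3.23, 3.67 and 2.56 FPKM in ApoE-/- and 3.41, 2.28 and 2.53 FPKM in NPRC-/-ApoE-/-. The lowest values stood in NPRC-/-ApoE-/- 2 and 3 and in ApoE-/- 5, and NPRC-/-ApoE-/- 1 was the second highest. Its log2 fold change was -0.19 by title (standard error 0.18, 95% interval -0.61 to 0.23, adjusted p = 0.668 in edgeR) and -0.02 by genotype entry (standard error 0.20). The locus on the opposite strand had 2.21, 3.17, 3.30, 1.62 and 1.66 FPKM in ApoE-/- and 2.69, 2.81 and 2.29 FPKM in NPRC-/-ApoE-/-, a log2 fold change of 0.13 by title (standard error 0.27) and of -0.58 by genotype entry (standard error 0.21, unadjusted p-value 0.023, adjusted p = 1.0). It is therefore the call made for Mkl1 by genotype entry, which ended when the locus on the strand of the gene was taken.

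The same held for Tead1, the TEAD factor that binds MCAT elements. The gene (ENSMUSG00000055320) lies on the plus strand of chromosome 7 from 112679318 to 112906807, and the locus with the most counts lies inside it on the minus strand from 112844307 to 112854958. In the locus on the strand of the gene, Tead1 had 1.58, 1.06, 1.24, 1.29 and 1.05 FPKM in ApoE-/- and 1.56, 1.53 and 1.55 FPKM in NPRC-/-ApoE-/-. The 3 NPRC-/-ApoE-/- libraries lay between 1.53 and 1.56 FPKM, and ApoE-/- 1 alone of the other group was as high. In CPM after TMM scaling the values were 31.5, 21.4, 27.6, 28.3 and 20.5 against 31.9, 31.7 and 34.2, which do not overlap (7.41% of all loci did not overlap by title, 3.72% with the NPRC-/-ApoE-/- libraries higher). The log2 fold change was 0.33 by title (standard error 0.16, 95% interval -0.04 to 0.71, adjusted p = 0.407 in edgeR) and -0.06 by genotype entry (standard error 0.20). The most counted locus, on the opposite strand, had 2.79, 2.21, 1.96, 3.41 and 2.14 FPKM in ApoE-/- and 3.55, 2.96 and 3.58 FPKM in NPRC-/-ApoE-/-, and it differed by 0.45 on the log2 scale (standard error 0.21, adjusted p = 0.381 in edgeR). Summed over 5 further loci with counts, all on the opposite strand, Tead1 reads outside its own locus came to 2.99 to 4.95 times the counts of the gene's own locus. For Mkl1 this ratio was 1.15 to 2.82. However, 52354 of the 91793 counts summed for Mkl1 came from the locus that also carries the name Sgsm3, so they are not those of Mkl1 alone. For the other factors with further loci the ratio stayed below 1 in every library.

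**Figure D2:**
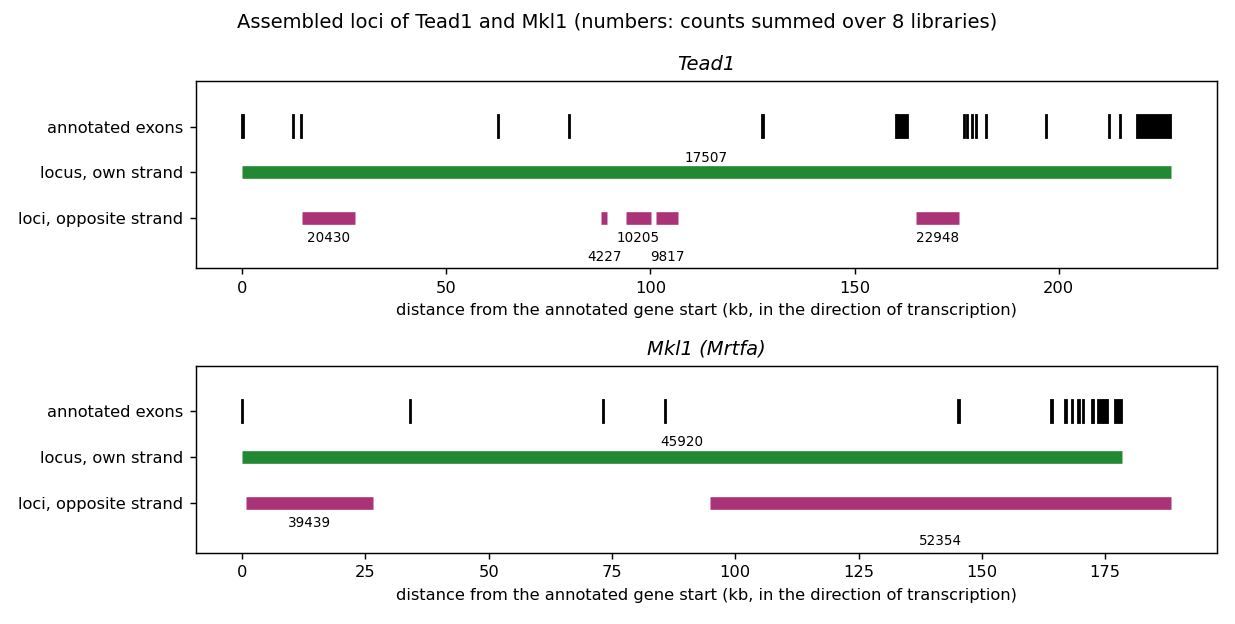
Position of the assembled loci of Tead1 and Mkl1 as the distance in kb from the annotated start of the gene, with annotated exons in black, the locus on the strand of the gene in green and loci on the opposite strand in purple. The numbers are counts summed over the 8 libraries, and for both genes the highest number stands on an opposite-strand locus (22948 against 17507 for Tead1, 52354 against 45920 for Mkl1).

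The MEF2 factors, which bind an element rich in A and T beside CArG boxes in many muscle genes, differed little between the groups. Mef2a (ENSMUSG00000030557, chromosome 7 from 67231163 to 67372858, in a locus that also names Gm44667) had 6.36, 5.85, 6.45, 6.93 and 6.36 FPKM in ApoE-/- and 5.97, 5.83 and 5.90 FPKM in NPRC-/-ApoE-/-. The 3 NPRC-/-ApoE-/- libraries lay between 5.83 and 5.97 FPKM, at the low end of the ApoE-/- range. In CPM they had 346, 341 and 368, against 359, 333, 407, 430 and 352 in ApoE-/-. NPRC-/-ApoE-/- 3 was then above ApoE-/- 1, 2 and 5. The log2 fold change was -0.10 by title (standard error 0.13, 95% interval -0.39 to 0.20) and 0.10 by genotype entry (standard error 0.14).

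Mef2c (ENSMUSG00000005583, chromosome 13 from 83504034 to 83667080) had 2.70, 2.76, 2.80, 2.52 and 3.67 FPKM in ApoE-/- and 2.55, 3.31 and 2.84 FPKM in NPRC-/-ApoE-/-. In FPKM, ApoE-/- 5 was the highest and ApoE-/- 4 the lowest library, as for Myocd within the ApoE-/- group. In CPM, however, ApoE-/- 4 had 65.8 for Mef2c, above ApoE-/- 1 with 64.0 and NPRC-/-ApoE-/- 1 with 62.3. The log2 fold change of Mef2c was 0.03 by title (standard error 0.14, 95% interval -0.29 to 0.36) and 0.11 by genotype entry (standard error 0.14).

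Gata6 (ENSMUSG00000005836), the GATA factor of vascular smooth muscle, had 4.50, 3.74, 3.61, 3.94 and 4.68 FPKM in ApoE-/- and 3.71, 5.20 and 4.95 FPKM in NPRC-/-ApoE-/-. NPRC-/-ApoE-/- 2 and 3 were higher than all other libraries, and NPRC-/-ApoE-/- 1 was lower than all but 1 of the ApoE-/- libraries. The log2 fold change was 0.20 by title (standard error 0.15, 95% interval -0.13 to 0.54, adjusted p = 0.556 in edgeR) and 0.16 by genotype entry (standard error 0.16). Leaving out NPRC-/-ApoE-/- 1 gave 0.35 and an unadjusted p-value of 0.026.

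Prrx1 (ENSMUSG00000026586, chromosome 1 from 163245119 to 163313710), a homeobox factor of mesenchymal cells that can promote myofibroblast fates, had 6.82, 8.38, 9.52, 8.42 and 10.37 FPKM in ApoE-/- and 7.14, 7.20 and 8.24 FPKM in NPRC-/-ApoE-/-. ApoE-/- 1 had the lowest and ApoE-/- 5 the highest value, so the NPRC-/-ApoE-/- libraries lay inside the range of the controls. The log2 fold change was -0.19 by title (standard error 0.17, 95% interval -0.56 to 0.19) and 0.22 by genotype entry (standard error 0.16).

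Tcf21, a basic helix-loop-helix factor of adventitial and coronary smooth muscle precursors, was at or below 0.85 FPKM in every library (ENSMUSG00000045680, chromosome 10 from 22817281 to 22820174). ApoE-/- had 24, 161, 63, 16 and 32 counts and NPRC-/-ApoE-/- had 31, 8 and 37 counts. The high value of ApoE-/- 2 stood apart from the rest. Without the filter on low values the log2 fold change was -1.36 by title (standard error 0.84, adjusted p = 0.546 in edgeR), and its interval covers changes in both directions.

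**Figure D3:**
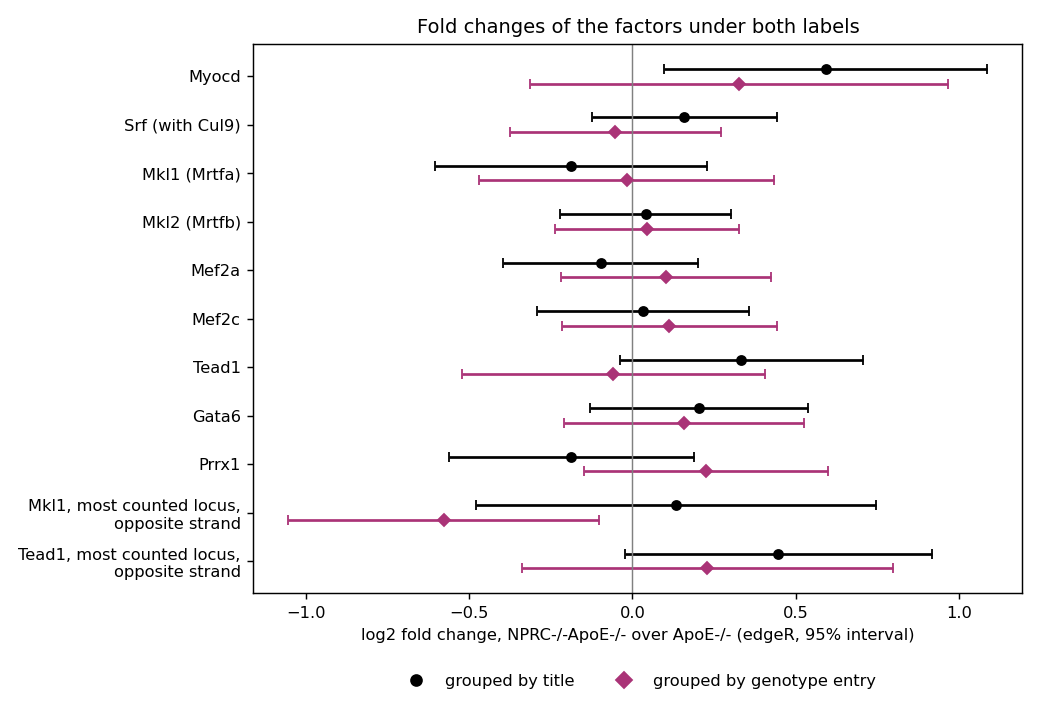
Log2 fold change of each tested factor with its 95% interval from edgeR, grouped by title (black circles) and by genotype entry (purple diamonds), for the locus on the strand of the gene and, in the lowest 2 entries, for the most counted locus of Mkl1 and Tead1. By title the interval of Myocd alone lies above 0 (0.10 to 1.09), and by genotype entry that of the opposite-strand locus of Mkl1 alone lies below 0 (-1.05 to -0.10).

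The locus on the strand of the gene was also taken for every factor, an option added after seeing the data. Myocd was still the 1 factor of 9 with an unadjusted p-value under 0.05 by title in edgeR, against 13.6% of all loci. With these loci 6 fitted changes were upward and 3 downward, and the median log2 fold change was 0.04. By genotype entry 0 of the 9 had an unadjusted p-value under 0.05 in edgeR (1.31% of all loci). Of the 16 tested loci that listed no annotated transcript, 0 had such a p-value by title and 1 by genotype entry, against the same shares of all loci.

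The contractile genes on which Srf and Myocd act were higher by title. Of 16 contractile genes, 13 rose at an unadjusted p-value under 0.05 (6.51% of all loci were called higher), 0 fell, and the median log2 fold change was 0.65. Smtn, encoding smoothelin of the contractile smooth muscle cell, had 39.3, 24.6, 30.6, 21.5 and 36.9 FPKM in ApoE-/- and 42.6, 66.8 and 68.6 FPKM in NPRC-/-ApoE-/-, with no overlap and a log2 fold change of 0.99 (standard error 0.24, adjusted p = 0.255 in edgeR). Cnn1, encoding calponin, had 43.4, 65.4, 58.4, 54.0 and 56.3 FPKM against 74.9, 91.5 and 92.3, again with no overlap and a log2 fold change of 0.66 (standard error 0.17, adjusted p = 0.255). Smooth muscle myosin heavy chain, encoded by Myh11, had 157, 134, 166, 109 and 197 FPKM against 171, 303 and 324, and NPRC-/-ApoE-/- 1 lay among the controls. The difference of Myh11 was 0.84 on the log2 scale (standard error 0.27, adjusted p = 0.290), and that of Mylk, the myosin light chain kinase, was 0.95 (standard error 0.29, adjusted p = 0.284). Myl9, a regulatory light chain, had a log2 fold change of 0.73 (standard error 0.31, adjusted p = 0.344), and vinculin, encoded by Vcl, had 0.23 (standard error 0.17, adjusted p = 0.567). By genotype entry, 0 of the 16 had an unadjusted p-value under 0.05 in edgeR (1.31% of all loci) and the median was 0.17. The count of 13 fell to 7 without ApoE-/- 1, to 8 without ApoE-/- 2, to 7 without ApoE-/- 4, to 6 without NPRC-/-ApoE-/- 2 and to 3 without NPRC-/-ApoE-/- 3, and it was 7 with limma on log2(FPKM + 1).

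Across libraries, the mean log2 CPM of the 16 contractile genes was 8.48, 8.49, 8.86, 8.49 and 8.70 in ApoE-/- and 8.75, 9.32 and 9.58 in NPRC-/-ApoE-/-. NPRC-/-ApoE-/- 2 and 3 stood above the rest, whereas NPRC-/-ApoE-/- 1 was below ApoE-/- 3. Myocd on the log2 CPM scale followed this level with Pearson's r = 0.82 over 8 libraries (two-sided exact permutation p = 0.020, adjusted p = 0.196 over the 10 factors) and a Spearman coefficient of 0.64 (permutation p = 0.096, adjusted p = 0.481). Without NPRC-/-ApoE-/- 2 and 3, the 2 libraries farthest from the median, r was 0.28, so the relation rests on those libraries, and among the libraries titled ApoE-/- it was 0.19, over 5 libraries. For Srf, at a locus shared with Cul9 and Mir6976, r was 0.63 (exact permutation p = 0.085, adjusted p = 0.284). The Spearman coefficient for this locus was 0.83 (permutation p = 0.015, adjusted p = 0.154) and r without the same 2 libraries was 0.72. Gata6 had r = 0.77 (exact permutation p = 0.046, adjusted p = 0.230), which became -0.22 without those 2. The difference between Myocd and the contractile mean, on the log2 scale, was -1.36 to -0.51 in ApoE-/- and -1.04 to -0.85 in NPRC-/-ApoE-/-, so the groups overlapped fully in the level of Myocd relative to its target genes.

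**Figure D4:**
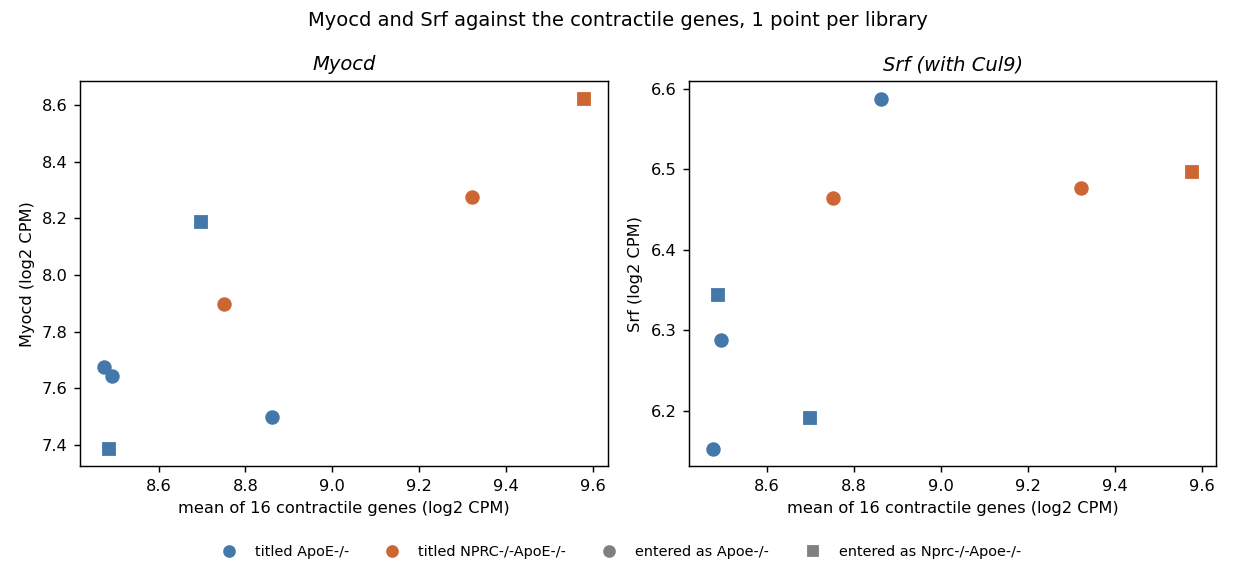
Log2 CPM of Myocd (left) and Srf (right) against the mean log2 CPM of 16 contractile genes, 1 point per library, coloured by title and shaped by genotype entry. For Myocd the 2 libraries farthest to the right, NPRC-/-ApoE-/- 2 and 3, also have the highest Myocd, and the other 6 show r = 0.28. For Srf, whose locus is shared with Cul9 and Mir6976, the 3 NPRC-/-ApoE-/- libraries are nearly level while the contractile mean spreads.

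The other class of serum response factor targets moved the opposite way by title, though not against every ApoE-/- library. Of 9 tested genes in the immediate early list of 10, which includes Srf itself, 7 had an unadjusted p-value under 0.05 and fell, 0 rose, and the median log2 fold change was -1.37 (7.13% of all loci were called lower). Fos had 15.3, 80.3, 105, 41.9 and 12.7 FPKM in ApoE-/- and 12.8, 11.9 and 13.1 FPKM in NPRC-/-ApoE-/-, a log2 fold change of -2.03 (standard error 0.72, adjusted p = 0.310 in edgeR). ApoE-/- 2, 3 and 4 were high, and ApoE-/- 1 and 5 stood near the NPRC-/-ApoE-/- libraries. The same split held for the sum of the list, with 1363, 1465 and 876 CPM in ApoE-/- 2, 3 and 4. ApoE-/- 1 and 5 had 428 and 371 CPM, inside the range of 360 to 471 CPM in NPRC-/-ApoE-/-. Egr2, a zinc finger factor with the CArG boxes printed above, had 2.14, 2.59, 7.03, 3.75 and 1.62 FPKM against 1.61, 1.01 and 1.46, a log2 fold change of -1.35 (standard error 0.51, adjusted p = 0.324). Jun was more even, with 29.2, 44.1, 32.5, 34.1 and 28.5 FPKM against 21.0, 20.3 and 20.2, no overlap and a log2 fold change of -0.70 (standard error 0.17, adjusted p = 0.255). For Junb it was -1.68 (standard error 0.66, adjusted p = 0.328). By genotype entry 0 of the 9 had an unadjusted p-value under 0.05 in edgeR (1.31% of all loci), with a median of -0.54. The count of 7 became 3 without ApoE-/- 2, 3 without ApoE-/- 3, 3 without ApoE-/- 4, 2 without NPRC-/-ApoE-/- 1 and 1 without NPRC-/-ApoE-/- 2 or without NPRC-/-ApoE-/- 3, and it was 3 with limma on log2(FPKM + 1).

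Among the ternary complex factors and repressors of the contractile programme, 2 of 9 tested genes were lower by title at an unadjusted p-value under 0.05 (7.13% of all loci) and 0 were higher in edgeR, and the fitted change was downward for 5 and upward for 4. Klf4, which represses myocardin-driven genes, had 8.52, 11.8, 17.0, 13.5 and 8.04 FPKM in ApoE-/- and 7.04, 6.25 and 6.66 FPKM in NPRC-/-ApoE-/-, with no overlap and a log2 fold change of -0.82 (standard error 0.29, adjusted p = 0.309 in edgeR). The highest Klf4 values stood in ApoE-/- 3 and 4, which were also high for Fos. Elk1, a ternary complex factor, had a log2 fold change of -0.51 (standard error 0.17, adjusted p = 0.303) at a locus that carries 3 gene names.

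In the MEF2 list, 5 of 11 genes had an unadjusted p-value under 0.05 by title and all 5 rose (6.51% of all loci were called higher), with a median log2 fold change of 0.34, although Mef2a and Mef2c themselves did not. Class IIa histone deacetylases, which bind and repress MEF2 factors, made up 3 of the 5, and Hdac9, the fourth tested, did not pass (log2 fold change 0.15, standard error 0.18). Hdac7 had 2.89, 3.15, 2.95, 2.70 and 3.50 FPKM in ApoE-/- and 4.55, 4.54 and 4.17 FPKM in NPRC-/-ApoE-/-, with no overlap and a log2 fold change of 0.56 (standard error 0.10, adjusted p = 0.193 in edgeR). Hdac5 had 4.20, 4.54, 4.66, 3.52 and 4.44 FPKM against 5.79, 6.49 and 5.23, with no overlap and a log2 fold change of 0.47 (standard error 0.13, adjusted p = 0.255), at a locus that carries 2 names. Hdac4 changed by 0.42 (standard error 0.12, adjusted p = 0.255), and Camk2g, a kinase that phosphorylates these deacetylases, by 0.43 (standard error 0.14, adjusted p = 0.290). By genotype entry 0 of the 11 had an unadjusted p-value under 0.05 in edgeR (1.31% of all loci), and the values were -0.03 for Hdac7, -0.19 for Hdac5 and -0.05 for Hdac4. Leaving out single libraries by title gave 4 to 6 of the 11.

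The TEAD list was mixed, with 1 of 16 tested genes higher and 2 lower at an unadjusted p-value under 0.05 by title and a median log2 fold change of 0.02. Over all loci 6.51% were called higher and 7.13% lower, so the shares of this list were near the background, and the genes below are given singly. Wwtr1, which encodes the TEAD coactivator TAZ, had 15.3, 14.7, 16.6, 16.5 and 16.1 FPKM in ApoE-/- and 7.17, 10.9 and 10.7 FPKM in NPRC-/-ApoE-/-. The 5 ApoE-/- libraries agreed closely and the groups did not overlap, with a log2 fold change of -0.70 (standard error 0.18, adjusted p = 0.255 in edgeR), but it was 0.18 by genotype entry. Tead3, a paralog of Tead1, had 6.24, 4.24, 7.12, 5.28 and 6.66 FPKM against 7.84, 10.5 and 10.6, with no overlap. Its log2 fold change was 0.73 by title (standard error 0.20, adjusted p = 0.255 in edgeR), but 0.10 by genotype entry. Cyr61, a secreted matrix protein and target of YAP and TAZ, had -0.83 by title (standard error 0.33, adjusted p = 0.328).

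The remaining lists had 0 genes with an unadjusted p-value under 0.05 by title in edgeR, against 13.6% of all loci. These were 4 tested GATA and FOG genes (median log2 fold change 0.04, with Gata2 at -0.27 and Lmcd1 at 0.21), 8 tested partners and inhibitors of Tcf21 (median -0.11, with Tcf4 at -0.30 and Tcf3 at -0.34) and 8 tested mesenchymal factors (median 0.25, with Meox2 at -0.37 and Tbx18 at 0.35). By genotype entry, Tbx18, a factor of mural cells, was at -0.57 with an unadjusted p-value of 0.005 in edgeR. No other gene of the 8 lists described had one under 0.05, against 1.31% of all loci. The adjusted p-value was 0.05 or above for all genes of these lists under both labels.

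**Figure D5:**
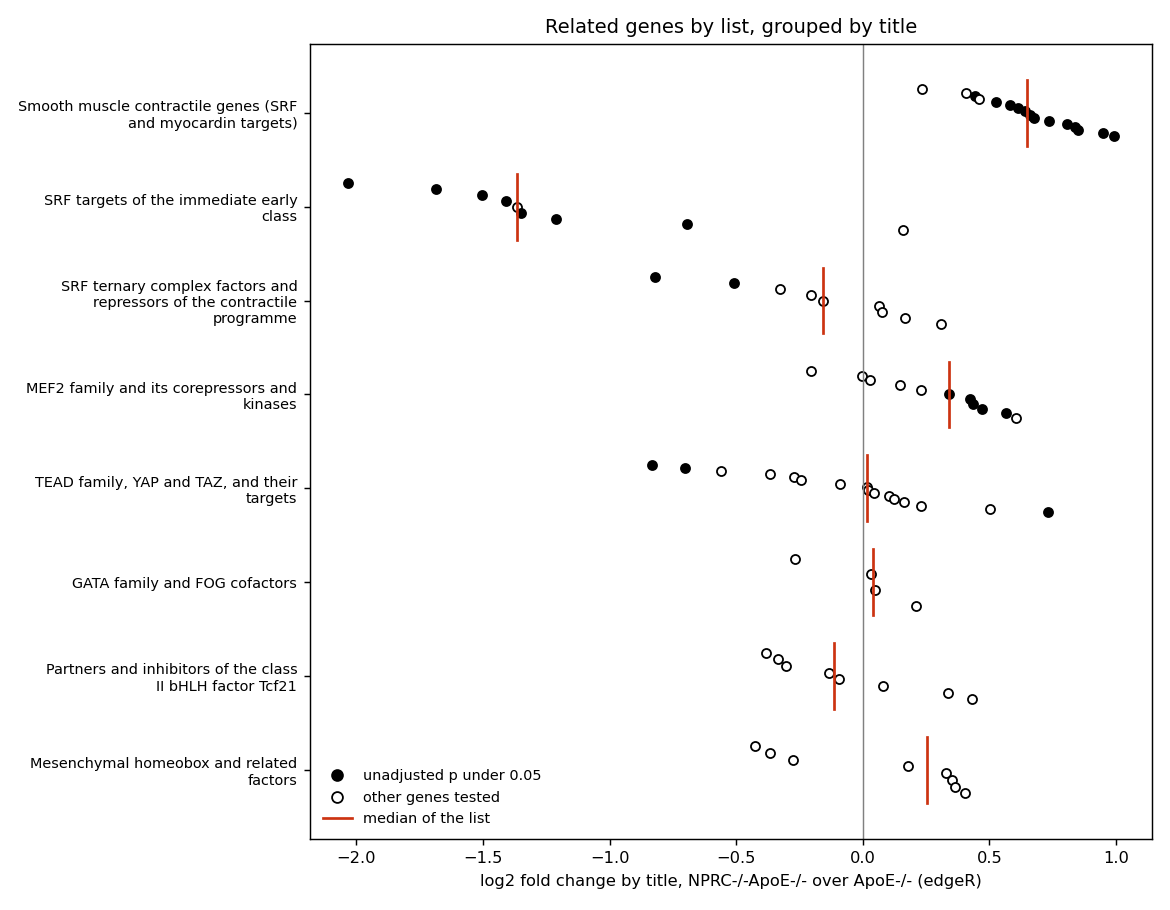
Log2 fold change by title of each tested gene in 8 lists related to the factors, with filled circles for an unadjusted p-value under 0.05 in edgeR, open circles for the other genes and a red line at the median of each list. Contractile genes all lie above 0 (median 0.65), and immediate early genes lie below 0 except Srf (median -1.37).

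Markers of other cell types moved with the title as well, and their part in the results above was not tested. All 8 smooth muscle markers, which the contractile list also holds, had an unadjusted p-value under 0.05 and rose, with a summed level of 6267 to 8457 CPM in ApoE-/- and 7901 to 15371 CPM in NPRC-/-ApoE-/-. Macrophage markers were lower in 8 of 8, of which 3 passed that p-value, with 1467 to 4149 CPM against 962 to 2168 CPM. Adventitial fibroblast markers were lower in 7 of 8, of which 2 passed, with 3191 to 9783 CPM against 1994 to 4494 CPM. Markers of sympathetic neurons and Schwann cells were lower in 6 of 6 tested, of which 5 passed, with 53.0 to 130 CPM against 19.0 to 33.1 CPM. Both tested T and B cell markers were lower and passed, at 155 to 287 CPM against 56.3 to 156 CPM. The 8 endothelial markers had 0 with an unadjusted p-value under 0.05 in edgeR, at 1200.1 to 1487 CPM against 1248 to 1322 CPM. Of the tested fat, skeletal muscle, cardiomyocyte and mesothelial markers, 1 cardiomyocyte marker was higher and 0 were lower at an unadjusted p-value under 0.05 in edgeR, and skeletal muscle markers summed to 2.81 to 45.9 CPM against 33.0 to 42.1 CPM. The skeletal muscle sum was 4.16, 3.67 and 2.81 CPM in ApoE-/- 2, 3 and 4, and 37.7 and 45.9 CPM in ApoE-/- 1 and 5. ApoE-/- 2, 3 and 4 were also the high libraries for the immediate early genes, and the cause of this split was not tested. No marker was at 0 in every library. Over all loci, 6.51% were called higher and 7.13% lower. By genotype entry 0 markers of any list had an unadjusted p-value under 0.05 in edgeR (1.31% of all loci), and the median log2 fold change was 0.17 for the smooth muscle markers, against 0.79 by title, and -0.16 for the macrophage markers, against -1.03 by title.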

How the data were processed

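Poly(A) RNA of whole aorta was sequenced in 8 libraries. The authors trimmed reads (the submitters' processing notes name cutadapt 1.9, FastQC and GRCm38), used HISAT2 for mapping and StringTie for assembly. They deposited the raw count of 48607 assembled loci per library and, beside it, FPKM values that the authors normalized to length and mapped fragments. No column lacked a sample (0). Total counts were 62969165 to 86693276 and no pair of libraries was within sampling noise (smallest mean chi-square per locus 92.7).

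Loci that reached 1 FPKM in 3 or more libraries entered edgeR 4.0.16 in R 4.3.3 with their counts (TMM, quasi-likelihood test, Benjamini-Hochberg adjustment over 20506 loci), by title and by genotype entry. The biological coefficient of variation was 0.327. On simulated data by title with 20506 genes, 200 of them changed, 18 of 100 genes changed by 1 on the log2 scale and 92 of 100 changed by 2 were recovered at an adjusted p-value under 0.05. Intervals are 95% intervals from the fit. CPM are TMM-scaled, with a prior count of 2 on the log2 scale. limma 3.58.1 and DESeq2 1.42.0 gave alternatives.

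The 10 factors and the gene lists were chosen with earlier results of these data known. From each list related to the factors, genes with an unadjusted p-value under 0.05 by title are named, at most the 4 of smallest p, or else the 2 of smallest p. Myl9 and Vcl, for their CArG boxes, and Tbx18 by genotype entry were named after their values were seen. Lists are described by counts and medians without a set test, and 1 list is not reported here.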

Additional observations from a re-analysis of the deposited data

Results flagged for a closer look

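Mkl2 in the library ApoE-/- 2 was far from the other libraries of its group, at 6.80 on the log2 CPM scale, and it was the lowest both among the 5 libraries titled ApoE-/- and among the 5 entered as Apoe-/-. The gap to the next library was 0.732 of the range of the titled group and 0.735 of that of the entered group. In total, 24 groups of 5 libraries were examined for a far library and 2 were found, both for this value, where chance gives 1.2. The cause was not tested.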

How the results depend on the processing

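The adjusted p-value stayed at 0.05 or above for all tested factors, 0 met the fold criterion, and the median kept its sign under each alternative run. Shares of all loci were computed only for the reported edgeR fits by title and by genotype entry. Counts under the other settings, here and above, therefore have no background beside them. The number of factors with an unadjusted p-value under 0.05 by title, 1 in the reported fit, was 2 with limma at either pseudocount, with voom quality weights, with the replicate block and in the same 6 libraries without the block, and 0 to 2 when single libraries were left out (0 without ApoE-/- 3 or NPRC-/-ApoE-/- 3, 2 without NPRC-/-ApoE-/- 1). By genotype entry it was 0 to 1 when single libraries were left out (0 without ApoE-/- 5) and 0 with the locus on the strand of the gene. Contractile genes that rose, 13 as reported, were 0 by genotype entry, 7 with limma at either pseudocount, 4 with the replicate block, 6 in the same 6 libraries without it, and 3 to 13 with single libraries left out. Immediate early genes that fell, 7 as reported, were 0 by genotype entry, 3 with limma at either pseudocount, and 1 to 8 with single libraries left out. MEF2-related genes that rose, 5 as reported, were 0 by genotype entry, 2 of 2 tested at a mean of at least 5 FPKM and 3 with the replicate block. Whether the replicate numbers pair the libraries could not be settled. After the group mean of each locus was taken off, same-numbered libraries correlated at -0.27, -0.13 and -0.01. Differently numbered libraries correlated at -0.17 to 0.25. With 3 NPRC-/-ApoE-/- libraries such deviations depend on each other, so these values cannot decide it.

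Directions reversed by genotype entry for Srf (-0.053), Mef2a (0.10), Prrx1 (0.22), Tead1 at the locus on the strand of the gene (-0.059 against 0.33) and the most counted locus of Mkl1 (-0.58), the last also with the replicate block (-0.12), in the same 6 libraries (-0.15) and with the locus on the strand of the gene (-0.19). With single libraries left out, Mkl2 ranged from -0.015 to 0.084 and Mef2c from -0.035 to 0.13. Myocd was upward in 19 of 19 alternatives, at 0.33 to 1.02, with an unadjusted p-value under 0.05 in 13 of 18 and adjusted p-values of 0.068 to 1.0. Tcf21 could be tested only without the filter. For the 4 libraries with agreeing labels there were values only. The cause of these shifts was not tested. With 3 NPRC-/-ApoE-/- libraries, the spread between libraries limits the precision.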

Other observations

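The loci whose log2 CPM followed Myocd most closely over the 8 libraries, among 18478 tested loci with a single gene name, were Itgb1bp1 (r = 0.983), Inpp5a (0.982) and Gm24031 (0.978), and 303 loci (1.64%) reached 0.9. For Mef2c they were Rpl35a-ps6 (0.944), 4930413F20Rik (0.923) and Lzic (0.920), with 7 loci at 0.9 or above. For Tcf21 they were Ing5 (0.973), Slco2b1 (0.949) and Rogdi (0.943), with 17 such loci. These are descriptions over 8 libraries that share depth and tissue composition, chosen as the highest of many.

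The opposite-strand locus of Myocd held its smallest share of counts in ApoE-/- 4 (0.209 of the own locus), the library with the lowest Myocd, and a locus without strand just downstream of Gata6 had a log2 fold change of 0.83 by title (standard error 0.40, adjusted p = 0.400 in edgeR).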
